A study of Arabidopsis thaliana with 16 samples.

Results

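Transcripts that differ between the end of the night and 30 min into the day were measured in whole wild-type seedlings of Arabidopsis thaliana, accession Wassilewskija (WS). The comparison sets the 2 WS arrays taken 30 min after dawn against the 2 taken 15 min before it, so it uses 4 of the 16 arrays. The other 12 arrays (WS at other times, and the lhy-21 cca1-11 double mutant of the same background) did not enter the differences. They entered the estimate of the spread between replicates, the filter for testing and the choice of each gene's brightest probe set. Of 22746 non-control probe sets, 14878 were bright enough to test, and 319 of these differed at 30 min. All 4 samples came from 9-day-old plants on sealed plates at 22 °C, in days of 18 h light (60 to 65 µE, cool white) and 6 h dark, on medium with 3% sucrose, after 4 days of cold in the dark. Each sample pooled the seedlings of a plate, so cell types are mixed, and fewer cells of a type cannot be told apart from less RNA per cell. No sample stayed dark after dawn, so light and the passing of time cannot be told apart. No label states that replicates were grown separately, and the p-values measure only how far these samples spread, possibly for technical reasons.

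At dawn the photoreceptors of a seedling, phytochromes for red light and cryptochromes for blue, become active and release transcription factors such as HY5 and its relative HYH from breakdown, while the PIF factors of darkness are destroyed. The circadian clock changes phase at the same hour, and photosynthesis begins to replace the sugar from starch on which the plant lived overnight. Genes of the first minutes of light therefore include regulators of light signalling, genes of pigments and protection, and, on the falling side, genes of growth in the dark and of carbon shortage.

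By limma with Benjamini-Hochberg adjustment over all tested probe sets, at an adjusted p of 0.05, 135 probe sets were higher at 30 min (0.907% of those tested) and 184 were lower (1.24%), 2.14% in all. The median difference over all tested probe sets was -0.01 on the log2 scale, and 1764 had an unadjusted p below the same threshold. On all 319 the 2 arrays at 30 min lay beyond both arrays before dawn, which was so for 42.3% of all tested probe sets. Differences of at least 2-fold were found for 70 of the rises and 114 of the falls, 184 together or 1.24% of those tested. The median rise was 2.03-fold and the median fall 2.18-fold. Probe sets that fell had a median intensity of 151.7 before dawn and 63.96 at 30 min, and those that rose had 88.05 and 197.3, against medians of 80.73 and 79.65 over all tested probe sets.

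The 4 arrays had medians between 34.66 and 36.13. Replicates correlated at 0.975 before dawn and 0.980 at 30 min over tested probe sets, and arrays of different times at 0.962 to 0.966. The ratio of 3′ to 5′ probe sets of the actin control ran from 3.572 to 4.37 over the 4 arrays. The 25S rRNA control read 142.2 and 57.70 before dawn and 91.84 and 88.11 at 30 min. For both controls the 2 times overlapped. Leaving out 1 array lowered the count of 319 to 169 without WS before dawn replicate 1, 182 without WS before dawn replicate 2, 149 without WS 30 min replicate 1 and 160 without WS 30 min replicate 2. All 319 kept their sign in these 4 fits, and 96 of them (35 rises, 61 falls) also kept the call in every one.

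**Figure D1:**
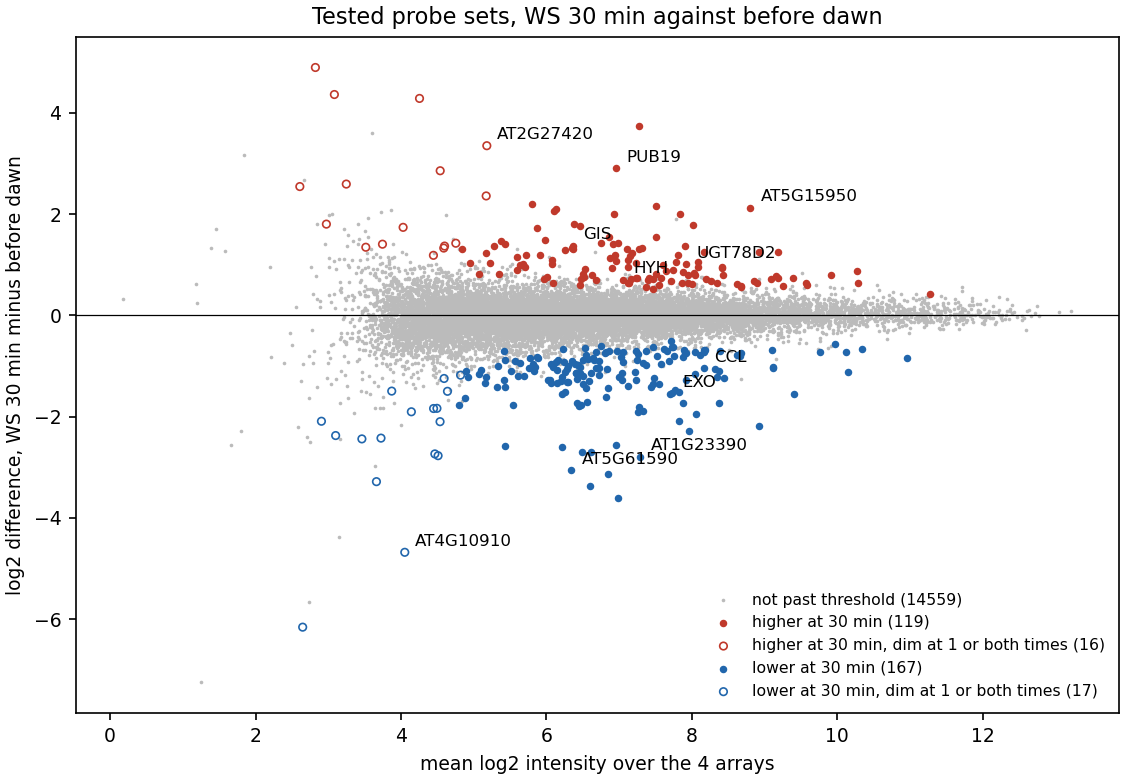
Each point is a tested probe set, with its mean log2 intensity over the 4 arrays on the x axis and its log2 difference, 30 min minus before dawn, on the y axis. Filled red and blue points passed the threshold, and open ones passed but were below the 40th percentile of the arrays at 1 or both times. The 184 falls outnumber the 135 rises, and most of both lie at intermediate intensity.

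Of the 319 probe sets, 142 had exactly 1 gene in the array annotation, each a different gene, 1 had several and 176 had none. By this split 1.76% of tested probe sets with 1 gene and 2.59% of the others changed. Among 7989 named genes, each taken by its brightest probe set, 51 rose (0.638%) and 91 fell (1.14%), 1.78% in all. Most of the 142 carry only a locus tag in the tables used here, which give no function for it, and 20 have a symbol of their own, where a synonym such as that of AT5G61590 was not counted. By chromosome the changed genes numbered 31 of 2044 on chromosome 1, 25 of 1152 on chromosome 2, 41 of 1610 on chromosome 3, 15 of 1161 on chromosome 4 and 30 of 1907 on chromosome 5. Rises among these numbered 12, 10, 17, 2 and 10 on chromosomes 1 to 5, against 51 of all 142.

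Among named genes the largest rise measured at both times was that of PUB19, a ubiquitin ligase of the U-box class known as a brake on responses to drought and abscisic acid. Its intensity was 46.45 and 44.09 before dawn and 347.2 and 335.8 at 30 min, a difference of 2.92 ± 0.377 log2 (standard error; limma adjusted p = 2.19e-04). The replicates lay close together at either time and far apart between times. AT5G15950 had the smallest adjusted p among named genes, at 2.10e-08, with 218.1 and 209.6 before dawn and 893.1 and 981.7 at 30 min (2.13 ± 0.118 log2).

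AT3G44450 rose from 27.65 and 24.71 to 114.8 and 125.3 (2.197 ± 0.179 log2). AT1G48100 rose from 28.83 and 39.76 to 134.0 and 156.7 (2.098 ± 0.198 log2). Both started above the 40th percentile of their arrays, which lay between 19.34 and 20.43. AT5G42760 rose from 106.0 and 123.5 to 455.9 and 455.7 (1.99 ± 0.185 log2), and AT3G52740 from 51.25 and 39.11 to 173.8 and 139.8 (1.80 ± 0.200 log2). The rises of these 6 genes were past the threshold without any of the 4 arrays taken singly, with adjusted p up to 0.00528 (PUB19).

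The next rises were smaller. AT2G15020 went from 23.96 and 24.34 to 66.15 and 59.01 (1.37 ± 0.199 log2) and AT3G56290 from 176.5 and 197.6 to 430.9 and 459.8 (1.25 ± 0.145 log2). AT3G48460 rose by 1.37 ± 0.232 log2 (adjusted p = 0.00278) and AT4G33040 by 1.296 ± 0.278 log2 (adjusted p = 0.0176). The call for AT3G48460 was lost without WS before dawn replicate 1 (adjusted p = 0.0693) or WS 30 min replicate 2, and that for AT4G33040 without any of the 4 arrays (up to 0.213).

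AT2G27420 rose from a dim signal, meaning one below the 40th percentile of its arrays on all arrays of a time, where a value gives only an upper limit. It read 10.11 and 12.73 before dawn and 104.1 and 129.1 at 30 min, at least 5.70-fold higher (adjusted p = 3.89e-06), where the bound sets the later mean against the percentile. Other named genes dim before dawn were AT3G14200 (at least 2.17-fold), AT5G63290 (at least 1.92-fold), AT5G37550 (at least 1.88-fold) and AT5G54300 (at least 1.62-fold). The first 3 of these lost the call without any of the 4 arrays, with adjusted p up to 0.126, 0.111 and 0.251, and AT5G54300 without WS before dawn replicate 1 or WS 30 min replicate 1 (0.228). In all, 14 rises started from a dim signal, 16 falls ended in one, and 2 rises and 1 fall were dim at both times.

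On the falling side AT5G61590 led the named genes measured at both times. The reference table gives it the name DEWAX, an AP2/ERF-type repressor of cuticular wax synthesis. It read 260.8 and 210.6 before dawn and 28.58 and 27.57 at 30 min (-3.06 ± 0.190 log2, adjusted p = 4.97e-08), so both later values were close to the 40th percentile. AT1G23390 went from 367.9 and 459.3 to 59.42 and 59.60 (-2.79 ± 0.185 log2) and AT2G20670 from 223.7 and 278.5 to 42.47 and 35.19 (-2.69 ± 0.191 log2). AT5G25280 went from 282.9 and 321.7 to 44.70 and 58.05 (-2.57 ± 0.233 log2). In these 4 genes the times lay far apart against the spread between replicates.

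AT3G06070 read 111.0 and 99.29 before dawn and 14.95 and 20.84 at 30 min, with 1 of the 2 later arrays above the 40th percentile (-2.57 ± 0.243 log2). AT5G19120 fell from 383.7 and 565.3 to 107.2 and 113.5 (-2.08 ± 0.181 log2) and AT3G26510 from 263.7 and 360.8 to 85.64 and 80.95 (-1.89 ± 0.175 log2). In both, the replicates before dawn differed more than those at 30 min, and the times did not overlap. AT1G49200 fell by 1.80 ± 0.256 log2, AT3G23880 by 1.76 ± 0.189, AT3G15450 by 1.73 ± 0.250 and AT2G27830 by 1.62 ± 0.258. AT4G23870 fell by 1.64 ± 0.288 log2 (adjusted p = 0.00388), to 23.46 and 11.79, and lost the call without WS 30 min replicate 2 (adjusted p = 0.0761). The other 11 of the 12 largest falls of named genes measured at both times kept the call without each of the 4 arrays.

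AT4G10910 fell to a dim signal, from 78.15 and 90.11 before dawn to 2.78 and 3.87, at least 4.32-fold (adjusted p = 6.00e-08). Its neighbour AT4G10925, next in the order of protein-coding genes of the TAIR10.1 assembly, fell from 107.8 and 135.9 to 54.67 and 68.55 (-0.98 ± 0.185 log2, adjusted p = 0.00685). They were the 1 pair among the 142 that lay within 2 places of each other. The call for AT4G10925 was lost without WS before dawn replicate 2 or WS 30 min replicate 1 (adjusted p = 0.130). AT1G77640 (at least 2.12-fold), AT2G37950 (at least 1.91-fold) and AT2G03310 (at least 1.32-fold) also fell to dim signals. Each of these 3 lost the call without 3 of the 4 arrays (adjusted p up to 0.256, 0.326 and 0.403), which were both arrays before dawn and WS 30 min replicate 2 for AT1G77640 and AT2G03310, and all but WS before dawn replicate 2 for AT2G37950.

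**Figure D2:**
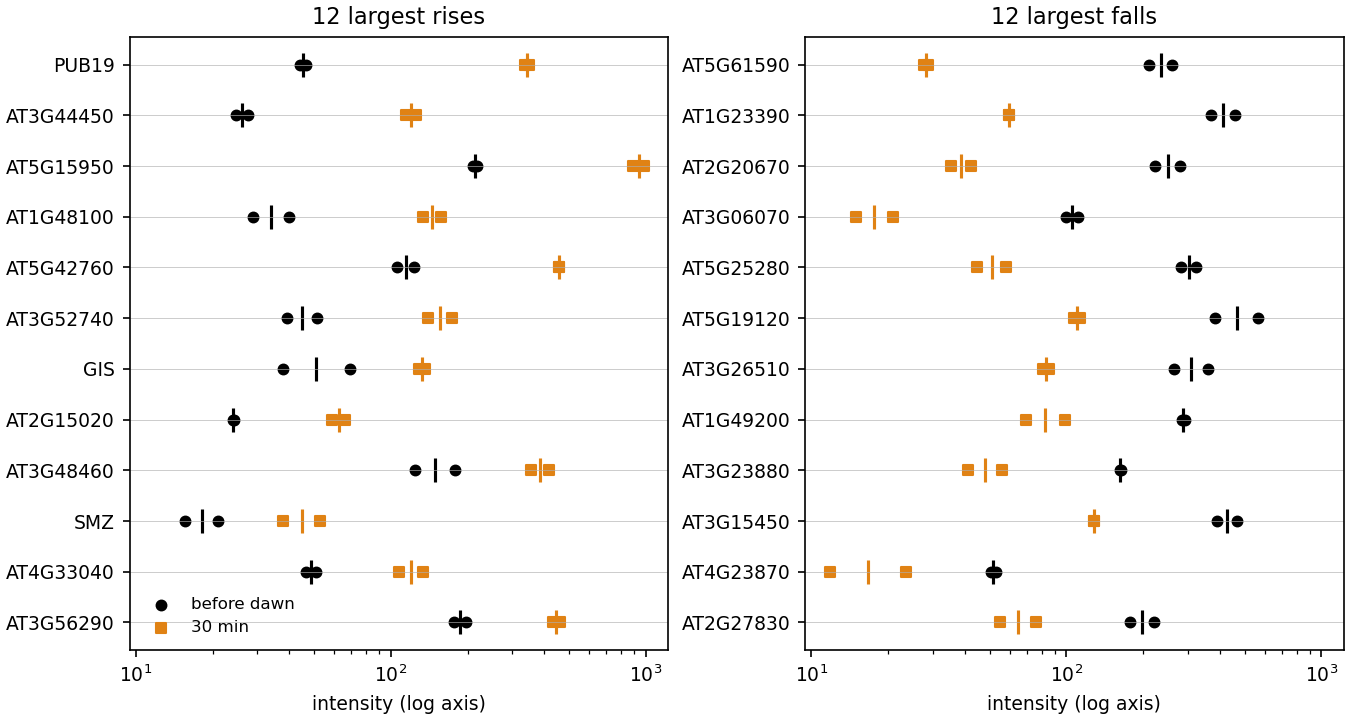
Intensity on a log axis on each of the 4 arrays for the 12 largest rises (left) and 12 largest falls (right) among named genes measured at both times. Points are arrays and the bars their geometric means. The genes run from PUB19 (below 47 before dawn) to AT2G27830. That the points before dawn and at 30 min do not overlap was a condition of the choice.

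The 20 changed genes with a symbol were 10 rises and 10 falls and are described by role, a choice made after their values were seen. Among regulators of light signalling, HYH, a bZIP factor related to HY5 that promotes seedling development in light, read 120.4 and 90.05 before dawn and 179.2 and 161.7 at 30 min. Its difference was 0.71 ± 0.168 log2 (adjusted p = 0.0352). AFR, a Kelch-repeat F-box protein named for its attenuated far-red response and acting in phytochrome A signalling, read 130.5 and 178.2, then 339.1 and 297.2 (1.06 ± 0.247 log2, adjusted p = 0.0309). Both genes were higher on each later array. HYH lost the call without WS before dawn replicate 2 (adjusted p = 0.324), WS 30 min replicate 1 or WS 30 min replicate 2, and AFR without any of the 4 arrays (up to 0.289).

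GIS and SMZ are regulators of development. GIS, a zinc finger factor that promotes trichomes on shoots, read 69.33 and 37.62 before dawn and 136.0 and 129.4 at 30 min (1.38 ± 0.234 log2, adjusted p = 0.00284). The spread lay mostly before dawn, and the call was lost without WS before dawn replicate 2 (adjusted p = 0.0534). SMZ, an AP2-type repressor of flowering, read 15.64 and 20.99, with 1 of 2 arrays above the 40th percentile, and then 52.99 and 37.87 (1.31 ± 0.283 log2, adjusted p = 0.0187). It lost the call without WS before dawn replicate 1 or WS 30 min replicate 1 (adjusted p = 0.275).

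Enzymes of protection and metabolism were the other rises above the 40th percentile. UGT78D2, which puts glucose on flavonoids, read 163.2 and 179.8 before dawn and 405.8 and 292.9 at 30 min (1.01 ± 0.165 log2, adjusted p = 0.00216), with the later arrays further apart than the earlier. It lost the call without WS 30 min replicate 1 (adjusted p = 0.0636). ARD4, an acireductone dioxygenase of the family that recycles methionine, read 369.2 and 391.0, then 631.8 and 556.8 (0.64 ± 0.115 log2, adjusted p = 0.00455). It lost the call without WS before dawn replicate 1 or WS 30 min replicate 1 (adjusted p = 0.0995). AOR, a reductase of reactive carbonyls, read 609.0 and 639.7, then 962.1 and 940.8 (0.61 ± 0.145 log2, adjusted p = 0.0362), and lost the call without any of the 4 arrays (up to 0.235).

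Of the 10 falls among these 20 genes, EXO had the largest difference above the 40th percentile. EXO, an extracellular protein of cell expansion that brassinosteroids induce, read 329.3 and 393.2 before dawn and 121.3 and 127.4 at 30 min (-1.53 ± 0.172 log2, adjusted p = 4.68e-05). EXGT-A3, a xyloglucan endotransglucosylase that remodels the cell wall, read 322.1 and 353.1, then 177.8 and 238.0 (-0.71 ± 0.169 log2, adjusted p = 0.0342). BRH1, a RING-H2 protein named for its response to brassinosteroids, read 244.1 and 236.9, then 136.5 and 141.4 (-0.79 ± 0.160 log2, adjusted p = 0.0113). These 3 genes were lower on both later arrays, and whether they share a response to brassinosteroids was not tested. EXO kept its call without each array. EXGT-A3 lost it without any array other than WS 30 min replicate 2 (adjusted p up to 0.426), and BRH1 without any of the 4 (up to 0.114).

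Regulators of transcription and RNA were a further group. bHLH121, a basic helix-loop-helix factor that controls iron uptake, read 120.2 and 155.1 before dawn and 53.92 and 66.34 at 30 min (-1.19 ± 0.178 log2, adjusted p = 8.61e-04). GT2, a DNA-binding protein of the trihelix family, read 73.66 and 86.21, then 35.47 and 44.61 (-1.002 ± 0.214 log2, adjusted p = 0.0167). SIC, a proline-rich protein that acts in microRNA production, read 63.28 and 54.19, then 28.06 and 36.01 (-0.88 ± 0.204 log2, adjusted p = 0.0287). bHLH121 kept its call without each array. GT2 lost it without any array other than WS 30 min replicate 2 (adjusted p up to 0.231) and SIC without any of the 4 (up to 0.338).

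CCL, named as CCR-like and known for a transcript with a daily rhythm, read 424.7 and 402.4 before dawn and 214.5 and 187.5 at 30 min (-1.04 ± 0.159 log2, adjusted p = 0.00104), and kept its call without each array. XERICO, a RING-H2 protein that raises abscisic acid levels, read 127.3 and 135.8, then 75.55 and 84.49 (-0.72 ± 0.166 log2, adjusted p = 0.0286). MSRB9, a methionine sulfoxide reductase that repairs oxidised protein, read 375.6 and 352.4, then 229.9 and 223.1 (-0.68 ± 0.165 log2, adjusted p = 0.0390). XERICO and MSRB9 fell on every later array, and lost the call without any of the 4 arrays (adjusted p up to 0.275 and 0.215).

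The remaining 3 genes with a symbol were dim at both times, so their differences have no usable size. GI, which encodes the clock protein GIGANTEA, read 2.21 and 7.98 before dawn and 18.87 and 11.43 at 30 min (adjusted p = 0.0379). ATL5, a RING-finger protein, read 1.60 and 3.99, then 12.39 and 17.55 (adjusted p = 0.0109), and NCRK, a receptor-like kinase, 18.68 and 12.80, then 5.46 and 2.42 (adjusted p = 0.0453). All of these values lay below the 40th percentile. GI and ATL5 lost the call without any array other than WS before dawn replicate 2 (adjusted p up to 0.373 and 0.134), and NCRK without any other than WS 30 min replicate 1 (up to 0.355). With dim values raised to that percentile GI and ATL5 turned to -0.066 log2, and neither was past the threshold (adjusted p = 0.922 and 0.902).

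Other settings ended some of these calls as well. With only the 8 WS arrays in the fit, HYH, AOR, EXGT-A3, XERICO, SIC, GI, ATL5 and NCRK were not past the threshold. Without the intensity trend, HYH, AFR, AOR, EXGT-A3, XERICO, MSRB9, GI and NCRK were not.

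**Figure D3:**
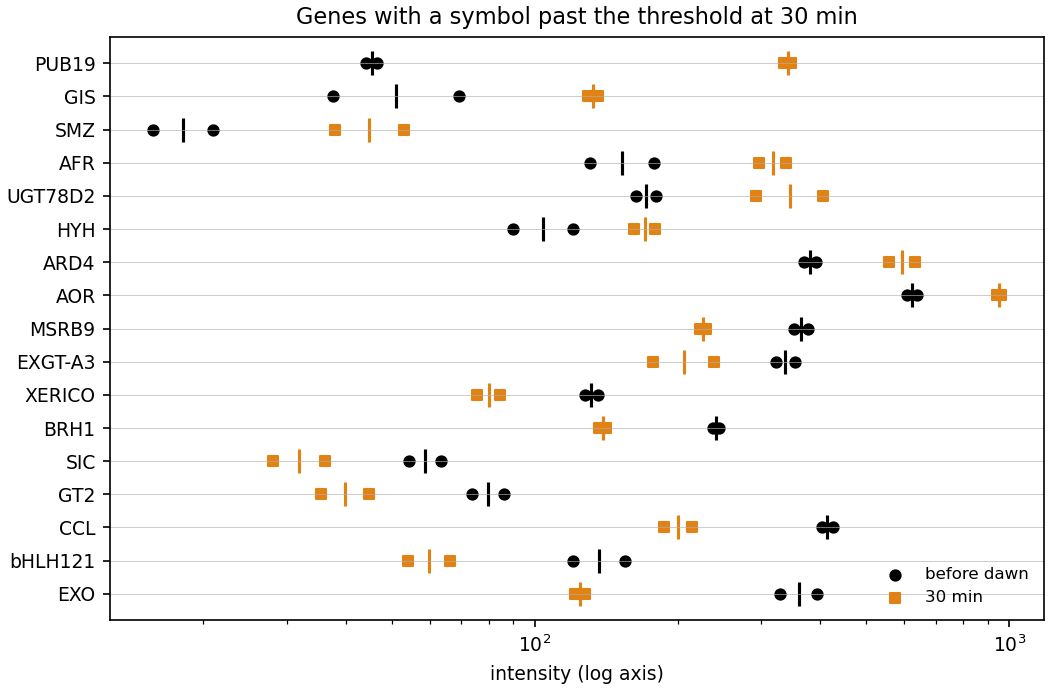
Intensity on a log axis on each of the 4 arrays for the 17 changed genes that have a symbol and were measured at both times. Points are arrays and bars their geometric means; EXO fell from above 329 to below 128 and PUB19 rose from below 47 before dawn.

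A further 25 named rises, all measured at both times, lay between 0.62 and 1.23 log2, with a median of 0.90, and none kept its call without each array. Another 64 named falls lay between 0.61 and 1.56, with a median of 1.07, and 17 of them did. For the weakest calls, AT1G65230 rose from 334.4 and 340.9 to 491.4 and 505.1 (0.56 ± 0.129 log2, adjusted p = 0.0275) and AT5G62350 fell from 1263 and 1183 to 809.1 and 844.3 (-0.56 ± 0.135 log2, adjusted p = 0.0362). AT3G57020 rose by 0.58 ± 0.141 log2 (adjusted p = 0.0408). AT1G65230 and AT5G62350 lost the call without any of the 4 arrays (up to 0.172 and 0.261), and AT3G57020 without any but WS before dawn replicate 2 (up to 0.334). AT5G62350 also lost it with each array centred on its median.

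The largest differences that did not pass, among named genes not dim at either time, were those of AT3G59780, AT5G39580 and AT1G32920. AT3G59780 read 33.27 and 388.9 before dawn and 433.5 and 422.9 at 30 min, a difference of 1.91 ± 0.720 log2 (adjusted p = 0.260). Without WS before dawn replicate 1 its difference was 0.14, so 1 array held most of it, and without WS before dawn replicate 2 it was 3.69. AT5G39580 differed by -1.48 ± 0.376 log2 (adjusted p = 0.0518) and AT1G32920 by -1.31 ± 0.393 (adjusted p = 0.118). With only the 4 arrays in the limma fit these 2 genes passed (adjusted p = 0.0101 and 1.77e-04). Like AT3G59780, some called falls had unequal replicates before dawn, and 4 were named after their values were seen. The probe set 262119_s_at read 1667 and 636.9, then 227.0 and 228.9, and lost the call without WS before dawn replicate 1 (adjusted p = 0.0859). AT2G43590 read 699.5 and 354.5, then 239.8 and 190.3, and 259481_at 137.5 and 53.30, then 25.12 and 25.08. Both lost the call without any array other than WS before dawn replicate 2 (adjusted p up to 0.335 and 0.390). AT3G16530 read 509.1 and 258.5, then 124.1 and 138.8, and kept its call without each array.

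Probe sets with no single gene listed held the largest measured differences of all. On the rising side 257262_at went from 49.29 and 36.34 to 562.6 and 568.3 (3.74 ± 0.185 log2, adjusted p = 7.45e-09), the smallest adjusted p of the comparison. It was followed by 256266_at (2.16 ± 0.148), 260380_at (2.05 ± 0.291), 259466_at (2.01 ± 0.286) and 258677_at (1.79 ± 0.173). On the falling side 265724_at went from 372.6 and 524.6 to 36.21 and 36.94 (-3.60 ± 0.227 log2, adjusted p = 5.54e-08) and 260287_at from 270.1 and 357.8 to 24.23 and 37.31 (-3.37 ± 0.265). Then came 252367_at (-3.13 ± 0.302), 251443_at (-2.69 ± 0.165) and 255742_at (-2.59 ± 0.274). All 10 kept the call without each of the 4 arrays. Another 79 rises and 88 falls had no single gene, of which 21 and 24 kept it, and 9 and 12 were dim at 1 time.

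Gene lists came from textbook knowledge but were chosen with earlier results of these data known, so they are not independent of them. They were thinly covered, because the array annotation names few of their members. Members were matched by symbol or synonym, so a gene carrying only a locus tag could be missed. The median difference of all 7989 named genes, -0.01 log2, is the level against which each list's median is read. Genes of wall loosening (expansins, xyloglucan enzymes and EXO) were the best covered list, with 17 tested. EXO and EXGT-A3 fell, against 1.14% of all named genes, 0 rose and 15 did not pass, and the list median was -0.13 log2. XTH18 differed by -0.79 ± 0.229 log2 (adjusted p = 0.102) and XTH19 by -0.61 ± 0.208 (adjusted p = 0.189). A negative difference was measured for 12 of the 17.

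No gene of the photosynthesis lists passed the threshold. Of 9 tested nuclear genes of the photosystems and the Calvin cycle 8 had a positive difference, with a median of 0.03 log2. SBPASE, an enzyme of carbon fixation, read 2377 and 2525, then 3074 and 2653 (0.22 ± 0.124 log2, adjusted p = 0.528), the largest of the 9. The 3 tested antenna proteins of photosystem II read higher on both later arrays, where 42.3% of all tested probe sets did not overlap in either direction: LHCB4.3 by 0.62 ± 0.222 log2 (adjusted p = 0.227), LHCB4.2 by 0.37 ± 0.143 (adjusted p = 0.269) and LHCB4.1 by 0.22 ± 0.123 (adjusted p = 0.519). Of 8 genes of chlorophyll and tetrapyrrole synthesis 5 had a positive difference and 0 passed, with a median of 0.19 log2. HEME2, a decarboxylase of that pathway, was the nearest, at 0.41 ± 0.148 (adjusted p = 0.236).

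Of 8 tested phenylpropanoid and flavonoid genes UGT78D2 rose, against 0.638% of all named genes, and 7 did not pass, with a median of 0.07 log2. UGT78D1, a close relative, stood at 0.42 ± 0.221 (adjusted p = 0.490). UGT84A1 was dim at both times. Among 8 genes of abscisic acid and dehydration PUB19 rose, against the same 0.638%, and 7 did not pass, with a median of -0.21 log2. The related ligase gene PUB22 stood at -0.68 ± 0.454 (adjusted p = 0.628). The dehydrin gene LTI30, whose protein protects cells in cold and drought, stood at -0.28 ± 0.200 (adjusted p = 0.676). XERICO, a fall described above, was not on the list of abscisic acid and dehydration.

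The tested members of the lists of sugar starvation, amino acid breakdown, and dark and shade response gave 0 calls at this time. Falls given above by locus tag alone were not members of these lists as matched, and their roles were not assessed. Of 4 tested sugar starvation genes AKINBETA1, a subunit of the energy sensor SnRK1, read 176.9 and 236.8 before dawn and 107.2 and 125.8 at 30 min, which did not overlap, and differed by -0.82 ± 0.222 log2 (adjusted p = 0.0735). MCCA, MCCB and IVD, enzymes of leucine breakdown, did not pass, and the median of the 4 was -0.02 log2. Of 8 genes of amino acid breakdown, which include these enzymes, MGL, a methionine gamma-lyase, stood highest at 0.43 ± 0.169 (adjusted p = 0.294) and the median was 0.02. HAT2, a homeodomain factor of the shade response, read 101.5 and 91.49, then 57.23 and 64.81 (-0.66 ± 0.174 log2, adjusted p = 0.0602), 1 of 3 tested genes of the dark and shade list. BIM1 and FHL, the others, stood at 0.18 and 0.26.

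The lists of auxin, of gibberellin, of ethylene and wounding, of heat shock and of reactive oxygen gave 0 calls. In the auxin list, with 4 tested members and a median of -0.10 log2, WAG2 differed by -0.73 ± 0.286 (adjusted p = 0.286). The 3 gibberellin receptor genes had a median of -0.11, and 3 genes of ethylene and wounding had -0.08, with the stress-induced zinc finger gene STZ at 127.0 and 56.47 before dawn against 59.45 and 42.28 (adjusted p = 0.626). The 2 heat shock genes had a median of 0.13, the 2 reactive oxygen genes -0.29 and the 2 of nitrogen and sulfur -0.12. Of 3 tested starch genes 0 passed (median -0.14). SAMDC stood at 0.01 and LYC at 0.02, each the 1 tested member of its list as matched. These lists, polyamine synthesis and carotenoid synthesis, were thus too thinly covered to describe either pathway. Rises given above by locus tag alone, AT5G15950 among them, were not members of any list as matched, and their roles were not assessed. Of 3 tested genes of the flowering list SMZ and GI passed as rises, against 0.638% of all named genes. GI was dim at both times, so its rise has no usable size. SNZ, a relative of SMZ, stood at 0.38 ± 0.275 (adjusted p = 0.667). Of 2 tested genes of the light signalling list HYH rose, against 0.638% of all named genes, and FHL did not pass. AFR was not on that list. No member of the lists of the morning clock, B-box proteins, early light-induced proteins, trehalose and plastid ribosome had a named probe set, so they were not analysed here, and GI was the 1 member of the evening clock list.

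**Figure D4:**
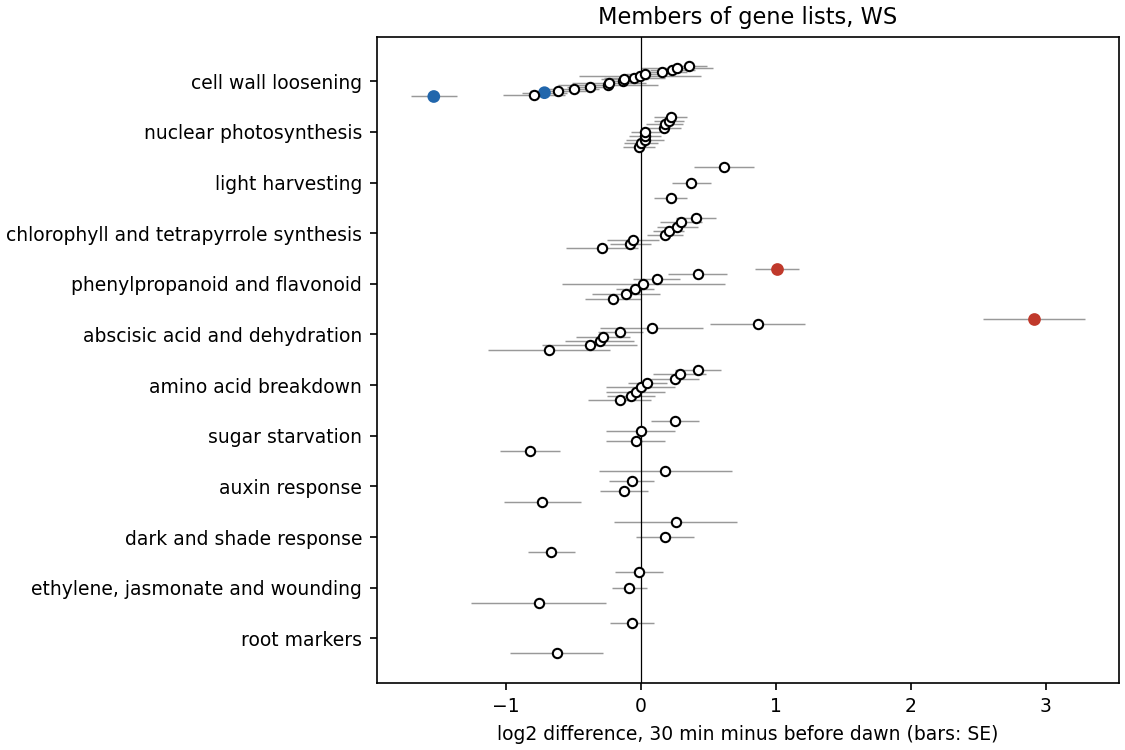
Log2 difference (30 min minus before dawn) of each tested member of 12 gene lists, with bars of 1 standard error and without members dim at both times. Filled points passed the threshold, red for the rises of UGT78D2 and PUB19 and blue for the falls of EXO and EXGT-A3; all others are open.

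The labelled tissue, whole seedlings, could be checked only in part. None of 16 green shoot marker genes had a named probe set, but the 9 nuclear photosynthesis genes were bright, with summed intensities of 30592 and 31389 before dawn and 34040 and 32016 at 30 min. Of the root markers 3 were tested. PYK10, a root beta-glucosidase, read 3242 and 4452, then 3484 and 3786 (-0.07 ± 0.161 log2, adjusted p = 0.941), EXPA18 of root hairs differed by -0.62 ± 0.343 (adjusted p = 0.519), and EXPA7 was dim at both times. Markers of mature seed, flower and pollen had no named probe set, so they were not analysed here.

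**Figure D5:**
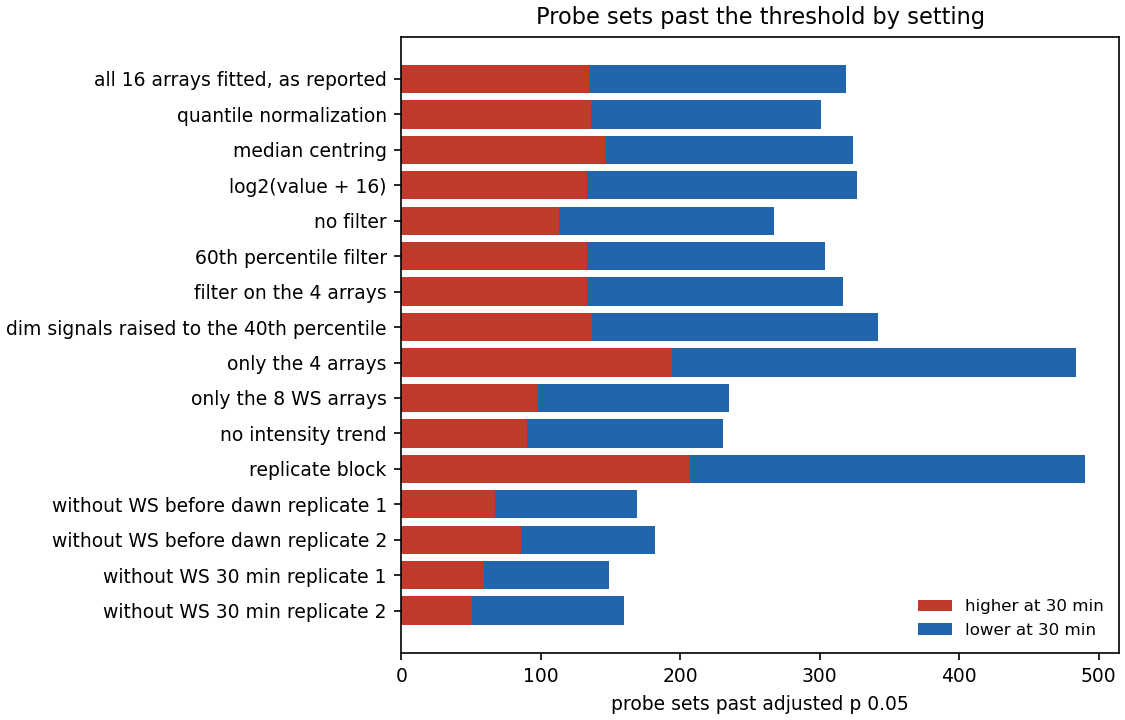
Number of probe sets past the threshold under the reported fit and each alternative, on a linear axis from 0, with rises in red and falls in blue. Falls outnumber rises in every bar, and the totals run from 149 without WS 30 min replicate 1 to 490 with the replicate block.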

How the data were processed

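Total RNA was labelled with biotin by the one-cycle protocol and hybridised to ATH1 arrays, 1 per sample, per the labels' protocols. The deposited values are linear intensity, made with MAS5 and GCOS per the submitters' processing notes; the sources used here give no versions. After 64 controls were left out, values were converted to log2 with no offset. A probe set was tested if above its array's 40th percentile on at least 2 of 16 arrays. Means of the 8 groups were fitted with limma 3.58.1 (R 4.3.3) and an intensity trend on 8 residual degrees of freedom, tested 2-sided, with Benjamini-Hochberg adjustment; all adjusted p-values are limma's. The fit was tested on simulated data. The number of arrays limits precision.

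In the array annotation 13513 probe sets have exactly 1 gene, 503 have several and 8730 have none; symbols were updated through a TAIR10.1 gene table, which 13436 matched. That table holds no product names, so a planned grouping of genes by product keyword was not made. Members, lists and tests were chosen with earlier results of these data known. A gene was read from its brightest tested probe set. Named were the 12 largest rises and falls measured at both times, up to 6 dim at 1 time, and 5 rises and 5 falls without a single gene. For these the arrays of the 2 times were required not to overlap, which held for all 319. Up to 4 members of each list by adjusted p were named too, with 3 genes on either side of the threshold. Replicates 1 or 2 of the 2 times did not deviate together (correlation 0.045), and no label says what a replicate number shares. The numbers were therefore not taken as pairs, though as a block within each genotype they raised the count from 319 to 490.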

Additional observations from a re-analysis of the deposited data

How the results depend on the processing

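The count of 319 stayed within 1.5 times under quantile normalization (301), median centring (324), log2(value + 16) (327), no filter (267), a 60th percentile filter (304), a filter on the 4 arrays (317), dim values raised to the 40th percentile (342), only the 8 WS arrays (235) and no intensity trend (231). It was 484 with only the 4 arrays, 490 with the replicate block and 184 with a difference of at least 1 log2 required as well. Without 1 of the 4 arrays it lay between 149 and 182, a fit with fewer samples. Rises made up 42.3% of calls, and 31.9% without WS 30 min replicate 2. With dim signals raised, GI and ATL5 stood at -0.066 log2; they are dim at both times, so this setting leaves no difference to measure. The block added calls for AT3G59780, AT5G39580, AT1G32920, HAT2, AKINBETA1, LHCB4.3 and XTH19 and ended none of the 319. With only the 4 arrays AT5G39580, AT1G32920, AKINBETA1, LHCB4.3 and XTH19 passed too. AT5G39580 also passed with log2(value + 16), the filter on the 4 arrays and dim values raised, HAT2 with the 60th percentile filter, UGT84A1 with log2(value + 16), and AT3G59780 without WS before dawn replicate 2. Why the other settings moved the counts was not tested. Of 63 called genes and probe sets singled out by the naming rules or a symbol, 44 kept the call under each alternative other than leaving out an array or requiring 1 log2, and 34 without each array. Dim probe sets limit what the arrays can show.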
